A study of Mus musculus with 4 samples.

Results

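Sgpp2, which encodes an enzyme that removes the phosphate from sphingosine 1-phosphate, was 7.83-fold higher in cultured neonatal mouse testes kept with WIN 18,446 than in those kept with vehicle. Among the genes described with it, the sphingosine kinase Sphk2 was 1.93-fold and 1.47-fold lower on its probe sets. Dim probe sets of Sphk1 and Sgpp1 were 2.24-fold and 1.63-fold lower, while brighter ones of these genes differed by at most 0.2 log2 units. The receptors S1pr2 and S1pr3 differed by at most 0.19 log2 units on any tested probe set. The genes are 8 in all: the phosphatases Sgpp2 and Sgpp1, the lyase Sgpl1, the kinases Sphk1 and Sphk2, and the receptors S1pr1, S1pr2 and S1pr3. Their members on the array are all probe sets whose single gene symbol in the array annotation is one of the 8, which gives 16 of the table's 45101 probe sets, and the 8 genes are among 18194 symbols that the annotation gives alone. The group was chosen by the measured difference between treated and vehicle samples, since Sgpp2 was known to be among the genes that rose most in these data. Its differences are therefore given below as a description with no p-value.

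Testes were taken from mice of strain 129 at 2 days post partum and kept in organ culture for 24 h, either with WIN 18,446 at 1 µM or with dimethyl sulfoxide as the vehicle. WIN 18,446 is known to block retinaldehyde dehydrogenases, which make retinoic acid. Tissue of both groups was placed on agar in serum-containing medium, and the labels name no genetic change in either. Transcripts were measured on Affymetrix 430 2.0 arrays for the mouse, with 2 arrays for WIN 18,446 and 2 for control. The labels do not say whether the arrays of a group came from separate animals or cultures, so SDs, SEs and p-values cover no more than the spread among these samples, and that may be technical. Whole testis holds many cell types, and fewer cells of a type cannot be told apart from less RNA per cell.

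Sphingosine 1-phosphate (S1P) is a signalling lipid made from sphingosine, the backbone that is released when ceramide is broken down. Sphingosine kinases add the phosphate, the phosphatases of the endoplasmic reticulum take it off again, and the lyase Sgpl1 splits S1P for good into a fatty aldehyde and phosphoethanolamine. Outside the cell S1P acts on a family of G protein-coupled receptors, which are best known for their part in blood vessels and in the movement of lymphocytes. In the testis the balance of ceramide, sphingosine and S1P is known for its link to the survival of germ cells.

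Sgpp2 and Sgpp1 encode enzymes of the same reaction, and their promoter windows are shown side by side. This pair was picked after its values were known. The log2 difference between the groups was 2.97 for Sgpp2 and -0.2 for the brightest probe set of Sgpp1. Whether the genes differed from each other was not tested. The windows are those of RefSeq for build GRCm38.p6, from 250 bases before to 50 bases after a start site, in the reference genome and not in strain 129. Capitals mark AGGTCA, a spelling of the binding motif of a single retinoic acid receptor or related nuclear receptor, searched on both strands. Other spellings of that motif were not searched, so a count of 0 holds for this spelling only. The Sgpp2 window lies at chr1:78310096-78310395 on the plus strand and the Sgpp1 window at chr12:75735680-75735979 on the minus strand. The start site of the Sgpp1 window is the outer end of the gene, while that of the Sgpp2 window, base 78310346, lies 797 bases inside the span that RefSeq gives the gene.
Sgpp2: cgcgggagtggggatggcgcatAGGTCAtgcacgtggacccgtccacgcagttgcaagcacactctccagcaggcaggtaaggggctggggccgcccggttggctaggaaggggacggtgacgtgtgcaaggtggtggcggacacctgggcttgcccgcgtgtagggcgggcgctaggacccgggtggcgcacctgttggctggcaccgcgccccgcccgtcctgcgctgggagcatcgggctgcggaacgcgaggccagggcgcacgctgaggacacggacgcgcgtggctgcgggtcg
Sgpp1: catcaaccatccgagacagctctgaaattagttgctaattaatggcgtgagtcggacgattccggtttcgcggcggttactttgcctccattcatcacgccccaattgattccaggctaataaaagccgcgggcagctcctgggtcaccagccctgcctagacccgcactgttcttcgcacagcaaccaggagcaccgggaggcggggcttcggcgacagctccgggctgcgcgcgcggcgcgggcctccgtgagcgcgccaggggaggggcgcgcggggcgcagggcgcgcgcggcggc

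The Sgpp2 window held 1 AGGTCA, which began 228 bases before the start site of the window and so within the annotated gene, and the Sgpp1 window held 0. Of the 12 windows listed for 7 of the 8 genes, all but S1pr1, 4 held the motif, namely 1 each of Sgpp2 and S1pr2 and 2 overlapping windows of Sphk1. Across all 32851 windows of RefSeq the share was 16.3%. The motif repeated in the same direction with 2 or 5 bases between, AGGTCANNAGGTCA or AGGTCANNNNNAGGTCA, was in 0 of the 12 windows and in 0.00913% of all windows for each spacing. The GC content was 72.0% in the Sgpp2 window and 66.0% in the Sgpp1 window, against a median of 52.7% over all windows. These are counts of letters and say nothing of binding.

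Values are log2 levels as deposited, and differences are WIN 18,446 minus control on that scale. The highest bacterial control probe set without a target in mouse RNA read 2.22, and values at or under it have no order. A probe set entered the test if it averaged 5 or more across the arrays, which 20895 did, with limma, a linear model that shares the estimate of the spread across probe sets. An adjusted p under 0.05 (Benjamini-Hochberg over all tested probe sets) is a call. The treated array 1 stood apart in 18S ribosomal RNA, whose 5' control probe set read 6.55 there, against 8.67 on the other treated array and 8.12 and 8.17 on the control arrays. Pearson's r across the tested probe sets, which are not independent replicates, was 0.985 between the WIN 18,446 arrays, 0.992 between the control arrays and 0.964 to 0.976 for a treated against a control array.

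Of the 16 probe sets of the 8 genes, 12 were tested, and these belong to 7 genes. The other 4 had a mean under the filter: the only probe set of S1pr1 and further probe sets of Sgpl1, S1pr2 and S1pr3. Limma called 2 of the 12, Sgpp2 as higher and 1 probe set of Sphk2 as lower, where 5.18% of all tested probe sets were called, 2.27% as higher and 2.91% as lower. Since that contrast chose the group, nothing is read from the count or from any call of a member below. In 7 of the 12 the groups were free of overlap, with 1 higher and 6 lower in WIN 18,446, against 53.1% of all tested probe sets. Over the 12 the median difference was -0.15, and over all tested probe sets it was -0.018. With each gene taken by its tested probe set of highest mean, the median was -0.09 over the 7 genes and -0.025 over all tested genes. Limma called 0 of all probe sets, and so 0 of these, without control array 1 (2455 at an unadjusted p under 0.05) or without control array 2 (2820).

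**Figure D1:**
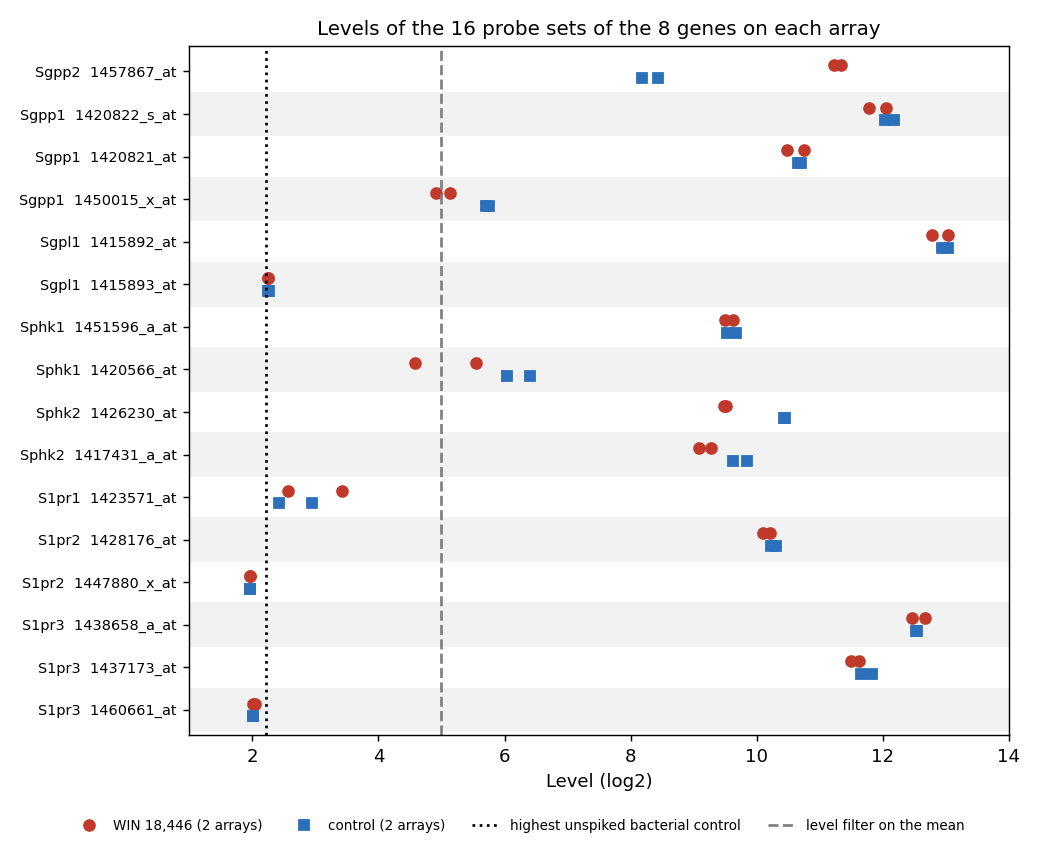
Log2 level of each of the 16 probe sets of the 8 genes on each array, with WIN 18,446 as circles above and control as squares below in each row. The dotted line is the highest bacterial control without a target (2.22), and the dashed line the filter of 5 on the mean. The Sgpp2 groups lie far apart, at 11.22 and 11.33 with WIN 18,446 and at 8.18 and 8.43 in control.

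Sgpp2 (1457867_at, chromosome 1, 78309549 to 78420289, GRCm38.p6) is measured by 1 probe set. It read 11.33 and 11.22 on the WIN 18,446 arrays, against 8.18 and 8.43 on the control arrays. Both treated arrays were thus higher than both control arrays, and the gap between the groups was many times the gap within either. The means were 11.27 ± 0.079 with WIN 18,446 and 8.30 ± 0.18 in control (SD, n = 2 each), a difference of 2.97 with an SE of 0.15. The arrays of a group differed by 0.11 with WIN 18,446 and by 0.26 in control, where the median gap over all tested probe sets was 0.16 with WIN 18,446 and 0.12 in control. By its difference Sgpp2 stood at place 17 among the 10970 genes with a tested probe set, each gene taken by its probe set of highest mean. Leaving out 1 array at a time gave differences between 2.84 and 3.10.

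The last part of the Sgpp2 gene overlaps Farsb, a subunit of phenylalanine tRNA synthetase that lies on the opposite strand, by 2332 bases in RefSeq. Farsb read 12.70 and 12.68 with WIN 18,446 and 12.69 and 12.55 in control, and limma did not call it (difference 0.07, SE 0.08, adjusted p = 0.66). The groups of Farsb overlapped. Pax3, Gm2102 and Mogat1, the other close protein-coding genes on either side, had no tested probe set. These neighbours were looked at after the values of Sgpp2 were known.

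Sgpp1, the more widely expressed phosphatase of the pair, was not called on any of its 3 probe sets. Its brightest probe set (1420822_s_at) read 11.78 and 12.05 with WIN 18,446, against 12.18 and 12.04 in control. The groups overlapped, and the difference was -0.20 with an SE of 0.12. A second probe set (1420821_at) read 10.48 and 10.75 with WIN 18,446 and 10.66 and 10.70 in control, a difference of -0.06 with an SE of 0.13. The remaining probe set (1450015_x_at), of a class whose probes can also bind other transcripts, lay near the filter at 4.92 and 5.13 with WIN 18,446, against 5.75 and 5.71 in control. Its groups did not overlap and its difference of -0.71 (SE 0.23) was larger than on the other probe sets of the gene. Sgpp1 lies on chromosome 12 (75714248 to 75735729), so the phosphatase genes are not neighbours.

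Sgpl1, the lyase that ends the pathway, was nearly level between the groups. On the tested probe set (1415892_at) it read 13.03 and 12.78 with WIN 18,446, against 13.03 and 12.94 in control. The means were 12.90 ± 0.17 with WIN 18,446 and 12.99 ± 0.062 in control, and the difference of -0.09 (SE 0.10) was under 1 SE. The other probe set of the gene (1415893_at) stayed between 2.25 and 2.26 on all 4 arrays, just over the bacterial controls.

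**Figure D2:**
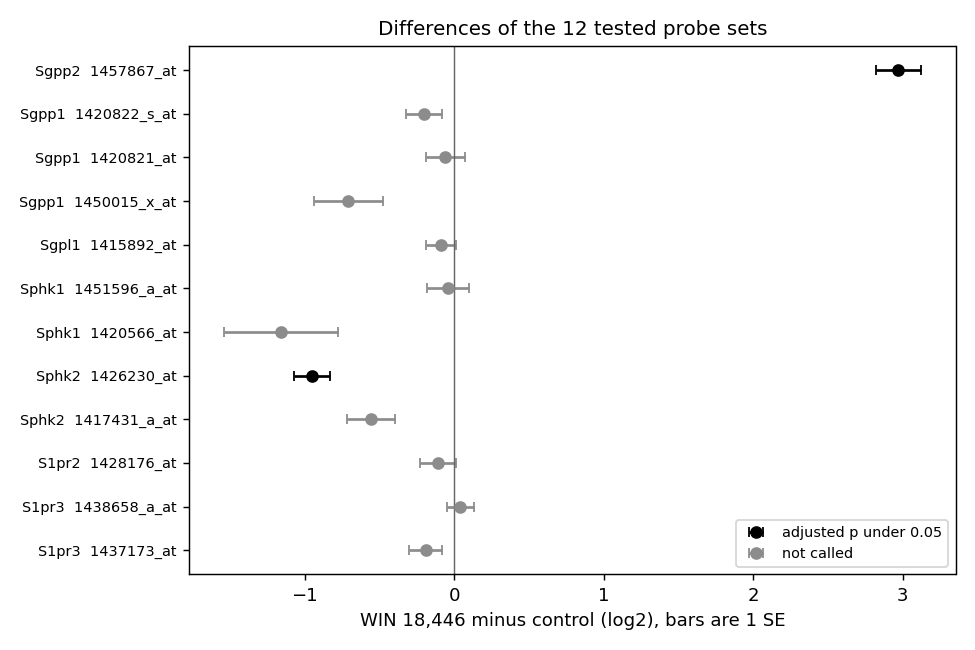
Difference of WIN 18,446 minus control (log2) of the 12 tested probe sets, with bars of 1 SE. Black points passed an adjusted p under 0.05 in limma, from which nothing is read, since the same contrast chose the group. Sgpp2 stands alone on the right at 2.97, and Sphk2 1426230_at lies at -0.95. The small difference of S1pr3 1438658_a_at changed sign with equal array medians and also without WIN 18,446 array 1.

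Both probe sets of Sphk2, the sphingosine kinase found in the nucleus and mitochondria as well as the cytoplasm, were lower with WIN 18,446. The first (1426230_at) read 9.48 and 9.52 with WIN 18,446, against 10.45 and 10.44 in control. The arrays within each group lay close together and the groups did not overlap. The means were 9.50 ± 0.027 with WIN 18,446 and 10.45 ± 0.012 in control (SD, n = 2 each), a difference of -0.95 with an SE of 0.12. The second (1417431_a_at) read 9.28 and 9.08 with WIN 18,446, against 9.84 and 9.63 in control, and its difference of -0.56 (SE 0.16) was not called. The groups did not overlap there either. The call of 1426230_at was lost without the level filter, without either control array and without WIN 18,446 array 1. With any 1 array left out its difference lay between -0.97 and -0.93.

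Sphk2 (chromosome 7, 45709463 to 45718002) overlaps a gene at either end. Dbp, a transcription factor of the circadian clock on the opposite strand, shares 741 bases with it. Dbp read 11.53 and 11.72 with WIN 18,446, against 12.36 and 12.43 in control, and fell by 0.77 on the log2 scale (SE 0.10, limma adjusted p = 0.0243). The groups of Dbp did not overlap, so that the overlapping genes were both lower in the same samples. Whether the probes of one lie in the shared stretch was not tested, since no probe sequences were used here. Car11, the next gene past Dbp, had a difference of -0.82 (SE 0.26) and was not called (limma adjusted p = 0.154). Rpl18, a ribosomal protein gene that overlaps the other end by 2536 bases, had no tested probe set with that single symbol.

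The probe sets of Sphk1, the mainly cytoplasmic kinase that growth factors activate, did not give the same picture. The brighter one (1451596_a_at) read 9.49 and 9.62 with WIN 18,446, against 9.67 and 9.53 in control. Its groups overlapped, and the difference of -0.04 (SE 0.14) turned positive, at 0.03 without control array 1 and 0.02 without WIN 18,446 array 1. The dimmer one (1420566_at) read 4.58 and 5.54 with WIN 18,446, against 6.04 and 6.40 in control, and was 1.16 lower with an SE of 0.38. Its groups did not overlap, but the treated arrays lay 0.96 apart and it was not called. Without WIN 18,446 array 2 its difference was -1.64, and without WIN 18,446 array 1 it was -0.68. The gene lies on chromosome 11 (116530836 to 116536675), and RefSeq lists 5 promoter windows for it.

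The receptors showed small differences or were close to background. S1pr2, a receptor that couples to G12 and G13 proteins, read 10.10 and 10.21 with WIN 18,446, against 10.23 and 10.30 in control (1428176_at, difference -0.11, SE 0.12). The groups came close without overlapping. S1pr3 has tested probe sets that differ in sign. The brighter (1438658_a_at) read 12.67 and 12.47 with WIN 18,446, against 12.54 and 12.53 in control, a difference of 0.04 (SE 0.09). That difference was -0.06 without WIN 18,446 array 1, and turned just negative when the array medians were set equal (0.998-fold). The other (1437173_at) read 11.49 and 11.62 with WIN 18,446, against 11.66 and 11.83 in control, a difference of -0.19 with an SE of 0.11. No probe set of either receptor was called. Further probe sets of S1pr2 (1447880_x_at) and S1pr3 (1460661_at) lay at or below 2.22 on every array.

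S1pr1, the main S1P receptor of endothelial cells and lymphocytes, was close to background. Its only probe set (1423571_at) read 2.56 and 3.43 with WIN 18,446, against 2.43 and 2.94 in control, and was not tested. The groups overlapped, and the arrays of a group differed by 0.87 with WIN 18,446 and by 0.51 in control. Endothelial markers were present in the same samples: of 14 listed, 10 were tested, 1 fell and 9 were not called. Over all tested genes 3.46% were called lower. The median difference was -0.86 for these markers and -0.025 over all tested genes. Their summed linear level was 5227 to 5459 with WIN 18,446 and 5882 to 7464 in control. Of the 10 tested, 9 had negative differences and 1 a positive one. Robo4, a receptor of vessel cells, fell by 1.01 on the log2 scale (limma adjusted p = 0.0435). Cldn5 at -1.33 and Tek at -1.17 (limma adjusted p = 0.0509) were not called. The brightest markers were nearly level: Sox18 differed by 0.09 and Eng, an endothelial co-receptor, by less than 0.01. Pecam1, Kdr, Tie1 and Sox17 had means under the filter and were not tested. Of these, Tie1 read 2.43 and 2.32 with WIN 18,446, against 5.16 and 4.97 in control. Of 5 lymphocyte markers 0 were tested, and Cd3e, Cd3g and Cd79a lay at or below 2.22 on every array. Ptprc, also under the filter, read 3.72 and 2.05 with WIN 18,446, against 2.07 and 2.05 in control. S1pr4 and S1pr5, the remaining receptors of the family, also lay at or below 2.22 on every array.

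The other genes of sphingolipid metabolism and S1P signalling were taken from a list of 69, of which 51 were tested, 13 had all probe sets under the filter and 5 had no probe set with that single symbol. Of the 51, 0 rose, 2 fell and 49 were not called, where 6.40% of all tested genes were called, 2.94% as higher and 3.46% as lower. The median difference was -0.08 on the list and -0.025 over all tested genes. Both genes that fell act on ceramide. Cerk, the kinase that makes ceramide 1-phosphate, read 11.75 and 11.95 with WIN 18,446, against 12.74 and 12.69 in control, and fell by 0.87 on the log2 scale (SE 0.10, limma adjusted p = 0.019). Cert1, which carries ceramide to the Golgi for sphingomyelin synthesis, read 12.40 and 12.36 with WIN 18,446, against 12.89 and 12.86 in control, and fell by 0.49 (SE 0.07, limma adjusted p = 0.0275). The groups did not overlap for either gene, and without a variance trend limma called neither. The other tested probe sets of Cert1 had differences of -0.59 and 0.09 and were not called. Without WIN 18,446 array 2 the list had 4 calls, the added ones being the ceramidase Acer2 (1.01) and the saposin precursor Psap (0.31), both higher.

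**Figure D3:**
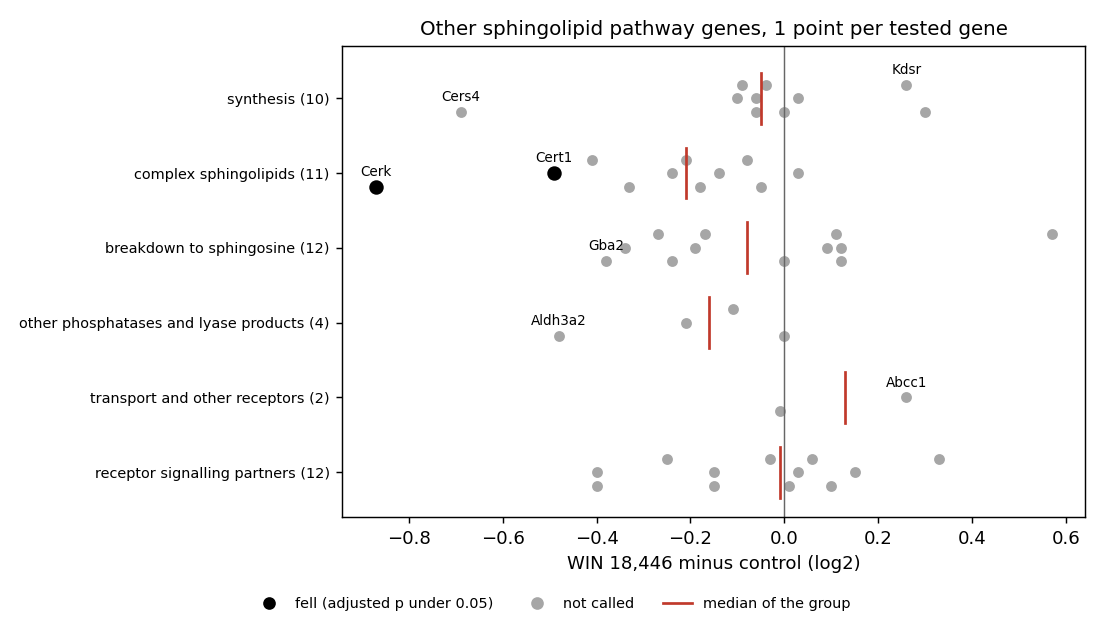
Difference of WIN 18,446 minus control (log2) of the 51 tested genes of the pathway list, 1 point per gene at its probe set of highest mean, in 6 groups with the number tested in brackets. The red line is the median of each group. Cerk at -0.87 and Cert1 at -0.49 are the genes that passed the test.

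In the other groups of that list no gene was called. Among 10 tested genes of ceramide synthesis 0 were called, with a median of -0.05. The ceramide synthase Cers4 differed by -0.69 (SE 0.15, limma adjusted p = 0.0675), Kdsr, which reduces ketosphinganine, by 0.26 and the regulator Ormdl1 by 0.30. Among 12 genes of the breakdown of larger sphingolipids towards sphingosine 0 were called, with a median of -0.08. The glucosylceramidase Gba2 differed by -0.38 (limma adjusted p = 0.154), the acid ceramidase Asah1 by -0.19 and the galactosidase Glb1 by -0.27. Aldh3a2, which oxidises the fatty aldehyde that the lyase releases, read 13.16 and 13.08 with WIN 18,446, against 13.72 and 13.48 in control, without overlap (difference -0.48, SE 0.10, limma adjusted p = 0.0605). Plpp1 and Plpp2, lipid phosphatases of the cell surface, differed by -0.11 and -0.21 and were not called. Abcc1, a transporter that can export S1P, differed by 0.26 (limma adjusted p = 0.144), and Spns1 by -0.01. Among 12 receptor signalling partners 0 were called, with Cib1, which brings Sphk1 to the membrane, at -0.40, Gna12 at -0.40 and Gna13 at -0.25.

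The genes most like Sgpp2 were sought by the distance between centred profiles over the 4 arrays, a measure that rests mainly on the difference itself. The nearest was Tnnc1, the troponin C of slow and heart muscle, at a distance of 0.24 log2 units. It read 7.34 and 7.45 with WIN 18,446, against 4.32 and 4.37 in control. Next came Gper1, a membrane oestrogen receptor (0.30), and Sfrp4, a secreted Wnt inhibitor (0.34). They were followed by the tubulin Tubd1 (0.37), the cationic amino acid transporter Slc7a3 (0.50) and the semaphorin Sema3g (0.53). In these 6 genes the treated arrays were higher than the control arrays, with differences from 2.63 for Slc7a3 to 3.12 for Sfrp4. The choice by likeness to Sgpp2 fixed that direction and size in advance, so nothing is read from them. Tnnc1 and Slc7a3 were under 5 on both control arrays, Slc7a3 at 4.71 and 4.78. They passed the level filter only through the treated arrays.

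**Figure D4:**
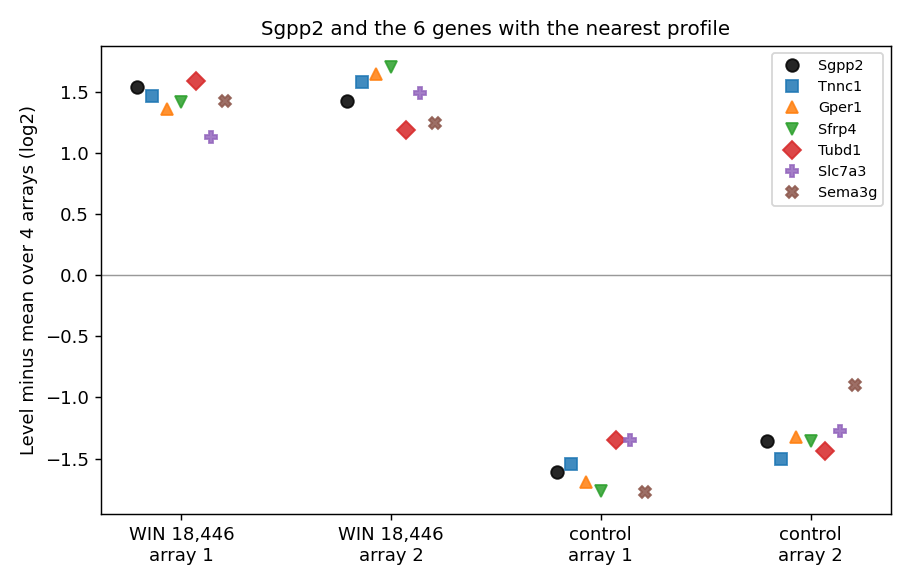
Log2 level minus the gene's own mean over the 4 arrays, for Sgpp2 and the 6 genes of nearest profile, with symbols set side by side within each array. All 7 genes lie above their mean on the WIN 18,446 arrays and below it on the control arrays, which the choice by likeness fixed in advance. Sema3g has the widest gap between control arrays, at 5.62 and 6.51 before centring.

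All 10 Sertoli markers and 8 of 10 germ cell markers passed the level filter, while the germ cell marker Dppa3 and the smooth muscle marker Cnn1 lay at or below 2.22 on every array. The Sertoli marker Cst9 read 14.68 and 14.73 with WIN 18,446, against 15.01 and 14.95 in control. Markers of several cell types differed between the same samples. Of the 10 Sertoli markers 6 fell (Sox9, Cldn11, Dhh, Wt1, Sox8 and Cst9) and 4 were not called, where 3.46% of all tested genes were called lower, and their summed linear level was 78112 to 78800 with WIN 18,446 and 99973 to 104195 in control. Cldn11, a tight junction protein of these cells, fell by 1.25 on the log2 scale (limma adjusted p = 0.00781). Amh, the hormone of these cells, was not called but differed by 1.25 in the other direction, at 11.12 and 10.60 with WIN 18,446, against 9.37 and 9.85 in control (limma adjusted p = 0.0575). Of 10 germ cell markers 8 were tested, of which Sall4 and Tdrd9 fell and 6 were not called, with sums of 25227 to 25927 with WIN 18,446 and 27257 to 28998 in control. Of these 8 germ cell markers 5 had positive differences, and the median was 0.13, of opposite sign to the sum. Of 9 macrophage and myeloid markers 5 were tested and 2 fell, S100a8 and S100a9, with sums of 1468 to 2929 with WIN 18,446 and 13288 to 14124 in control. In control both genes carried most of that sum. The tested macrophage markers C1qb (-0.19), Mrc1 (0.10) and Lyz2 (-0.62) were not called, while C1qa lay at or below 2.22 on every array. Of 7 Leydig cell markers 5 were tested and 0 called. All 5 differences were negative, with sums of 31468 to 35958 with WIN 18,446 and 37545 to 44718 in control. Of 6 smooth muscle markers 4 were tested and Des fell (-1.47, limma adjusted p = 0.0349). All 4 differences were negative, with sums of 19440 to 19595 with WIN 18,446 and 23313 to 23345 in control. Of 6 epithelial markers of the ducts 4 were tested and 0 called, and the 1 tested erythroid marker, Hbb-b2, differed by -1.42 and was not called (limma adjusted p = 0.0618). The part of these lists in the differences of Sgpp2 and Sphk2 was not tested.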

How the data were processed

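Total RNA of 4 cultured testis samples was measured on Affymetrix arrays. The deposited values are log2 levels that the authors had already normalized. Which of RMA and GCRMA, the methods in the submitters' processing notes, made them is not given in the sources used here. The log2 scale is judged from the range of the uncentred values, with column medians of 3.83 and 3.72 (WIN 18,446) and 3.72 and 3.76 (control). The number of arrays limits the precision.

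Genes were named from GEO's annotation of the array, with coordinates and promoters from RefSeq (GRCm38.p6). The 64 control probe sets were left out. Probe sets averaging 5 or more (46.4%) were fitted with limma 3.58.1 in R 4.3.3 (lmFit, eBayes with a variance trend, two-sided). The fit was also run on simulated normal values that used its own variances, which cannot test its assumptions. The smallest p that an exact permutation test can reach here is 0.333, so none was run. A listed gene is represented by its tested probe set of highest mean.

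The members and lists were chosen with earlier results of these data known. Genes named are all members, the called genes of each pathway group or otherwise up to 3 of smallest p, called or bright markers, and the 6 genes nearest to Sgpp2 (clones and predicted genes passed over). Acer2, Psap, Amh, C1qb, Mrc1, C1qa, Dppa3, Cnn1, Spns2, Cers3, the further probe sets of Gna13 and the neighbours of Sgpp2 and Sphk2 were chosen after their values were seen. So were the endothelial markers Cldn5, Tek and Tie1. Alternatives were other level filters, quantile normalization, equal medians, robust moderation, a fit with no variance trend, a block for the replicate number, leaving out each array and averaging the probe sets of a gene. The planned comparison of proteins was not run, as no protein sequences were used here.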

Additional observations from a re-analysis of the deposited data

How the results depend on the processing

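The 2.97 difference of Sgpp2 was 3.01 with quantile normalization, 2.93 with equal medians and 2.84 to 3.10 with 1 array left out. The level filters, the variance settings and the replicate block cannot change a difference of group means, so they are no check of it. Of the 12 tested probe sets of the 8 genes, 8 kept their sign under the alternatives that could change it. The other 4, with differences under 0.1, did not. These were Sgpp1 1420821_at, Sgpl1 1415892_at and Sphk1 1451596_a_at with 1 array left out, and S1pr3 1438658_a_at also with equal medians. Counts of calls moved more. Without the level filter limma called 3 probe sets in all (5250 at an unadjusted p under 0.05), 0 of the 8 genes and 0 of the pathway list. With no variance trend it called 372 in all, 2 of the 8 genes and 0 of the list. With 1 array left out it called 0 to 1398 in all, 0 to 3 of the 8 genes and 0 to 4 of the list, and the lone array of a group was assumed to vary like the other group. With a gene's tested probe sets averaged, 5 list genes fell: Cerk, Cers4, Aldh3a2, Gna13 and Cib1, but not Cert1. The cause of these shifts was not tested. With the replicate number as a block, limma called 1467 in all, 2 of the 8 genes and 3 of the list. The labels do not say whether same-numbered arrays are pairs, and the main fit did not treat them so. Their deviations had a correlation of 0.014 across probe sets, which cannot exclude pairing that touches a part of the probe sets. A mean of at least 7, 2 arrays at 5 or above, quantile normalization, equal medians and robust moderation gave 1215 to 1321 calls in all. The 2 arrays per group limit what can be called, and values near 2.22 carry no order.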

Other observations

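Gna13, a G protein subunit that S1P receptors use, gave different values on its 7 tested probe sets, and is described here after its values were seen. The brightest read 13.00 and 13.01 with WIN 18,446, against 13.29 and 13.23 in control (difference -0.25, limma adjusted p = 0.0904). Of the dimmer ones, 2 were called lower, 1430295_at at 7.82 and 8.36 with WIN 18,446, against 9.50 and 9.65 in control (-1.48, limma adjusted p = 0.0349), and 1453470_a_at at 6.71 and 7.17 with WIN 18,446, against 8.27 and 8.27 in control (-1.33, limma adjusted p = 0.043). All 7 differences were negative, from -1.48 to -0.25.

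Spns2, the transporter that exports S1P from endothelial cells, had a mean under the level filter and was not tested. It read 2.86 and 3.29 with WIN 18,446, against 2.30 and 2.30 in control. Cers3, a ceramide synthase, was also under the filter, at 2.34 and 2.28 with WIN 18,446, against 3.15 and 2.76 in control.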
